A study of Mus musculus with 8 samples.

Results

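Gm-numbered symbols are placeholder names that the mouse nomenclature gives to gene models which were predicted from genome sequence and have no name from a known function. On the expression array used here, 1854 of 55681 non-control probes carry such a symbol, for 1575 different genes. They were chosen by symbol alone, and 9 probes of 5 further symbols (Gm1987, Gm3893, Gm13298, Gm13304 and Gm8909) were not included. All 9 of those probes were tested and had an adjusted p under 0.05, so the counts below hold for the Gm-numbered probes without them.

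RNA came from the prefrontal cortex (PFC) of 4 α-Gal A(-/0) mice and 4 wildtype mice. The α-Gal A(-/0) males carry a null mutation of Gla, the X-linked gene of the lysosomal enzyme α-galactosidase A, on a C57BL/6 background, and are a model of Fabry disease, in which glycosphingolipids accumulate. Wildtype animals were male C57BL/6J mice, and all animals were 20 to 24 weeks old. The strains were kept as separate inbred colonies, so genotype and colony cannot be told apart. Each mouse had 1 array, and the 8 arrays lay on 1 slide.

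Different kinds of gene sit behind Gm numbers. Some are protein-coding genes that arose by repeated duplication, such as zinc finger genes with a KRAB domain, and lie in clusters of near-identical copies. Others are long non-coding RNAs, transcripts without a recognised protein product. A further set are pseudogenes, many of which are reverse-transcribed copies of abundant mRNAs and keep most of the sequence of the gene they were copied from.

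The probes below are those with an adjusted p under 0.05 that lie in non-coding genes, and they are printed because the genotype difference of their genes rests on 1 stretch of 60 bases each. Each is given 5′ to 3′ in lower case with its mm9 position.
Gm3219, transcribed pseudogene, chr14:35158425-35158484, plus strand: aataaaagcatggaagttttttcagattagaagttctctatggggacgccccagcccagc
Gm3161, long non-coding RNA, chr14:43967961-43968020, plus strand: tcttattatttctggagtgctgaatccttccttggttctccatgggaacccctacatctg
Gm14762, long non-coding RNA, chrX:83072942-83073001, plus strand: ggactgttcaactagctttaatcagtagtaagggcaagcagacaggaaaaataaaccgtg
Gm10790, long non-coding RNA, chr13:42008168-42008227, plus strand: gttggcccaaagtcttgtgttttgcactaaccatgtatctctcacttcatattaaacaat
Gm5086, long non-coding RNA, chr13:98353890-98353949, plus strand: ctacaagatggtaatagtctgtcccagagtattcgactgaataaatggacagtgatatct
Gm4876, long non-coding RNA, chr6:17026339-17026398, minus strand: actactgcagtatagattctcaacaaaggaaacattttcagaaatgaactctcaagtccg
None of these 6 probes shared 25 or more bases with a probe of another gene. Their GC content lay between 36.7% (Gm10790 and Gm4876) and 45.0% (Gm3219 and Gm3161), beside a median of 41.7% over the Gm-numbered probes.

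Detection was lower for Gm-numbered probes than for the array as a whole. A probe counted as detected on an array when the scanner software flagged its signal as well above background. Between 735 and 1041 of the 1854 Gm-numbered probes were detected per array, or 39.6% to 56.1%. On the same arrays 53.8% to 68.7% of all probes were detected. On each of the 8 arrays the share of Gm-numbered probes lay below that of probes with a Rik symbol, which name transcripts from a large cDNA project (45.0% to 61.2%), and above that of probes for long intergenic non-coding RNA (lincRNA) intervals (33.2% to 54.8%). The remaining probes, a class that holds the named genes and also probes with other identifiers, reached 64.9% to 76.5%, and the array of α-Gal A(-/0) mouse 2 was lowest in every class.

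The α-Gal A(-/0) mice had 922, 735, 961 and 964 Gm-numbered probes detected, a mean of 895.5 ± 109 (SD, n = 4). Wildtype mice had 1041, 952, 943 and 963, a mean of 974.8 ± 44.9 (SD, n = 4). The genotypes overlapped, and the difference was within the spread between mice (two-sided exact permutation test, p = 0.26, or p = 0.51 without α-Gal A(-/0) mouse 2). As a share of all probes detected on an array, Gm-numbered probes made up 2.45% to 2.72%.

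Most Gm-numbered probes were either detected throughout or not at all. On all 8 arrays 694 probes (37.4%) were detected and on none 710 (38.3%), with 152 more detected on 7 of the 8. Tested between genotypes were 888 probes for 771 genes, those detected on all 4 arrays of at least 1 genotype and with uniform spots throughout (4 Gm-numbered probes had a non-uniform spot). This is 47.9% of the Gm-numbered probes, beside 61.7% of all probes, 53.3% of Rik-named, 44.0% of lincRNA interval and 71.4% of the other probes. Of the 888, 693 were detected on all arrays of both genotypes, 193 only through the wildtype arrays and 2 only through the α-Gal A(-/0) arrays. For 149 of the 193, the array of α-Gal A(-/0) mouse 2 was the one on which the probe was missed.

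The log2 signals of tested Gm-numbered probes had a median of 7.73, with quartiles of 5.98 and 10.4, and reached 17.54. Over the tested probes with neither a Gm, a Rik nor a lincRNA interval name the median was 9.53. Signals of different probes also depend on each probe's sequence, so these values describe brightness and do not rank amounts of RNA. Above a log2 signal of 14 lay 82 tested Gm-numbered probes (9.23%). The share was 7.96% of the tested probes with none of those 3 kinds of name, and 6.24% of all tested probes.

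The kind of gene was read from the RefSeq table (GRCm38.p6), matched by symbol, transcript accession or synonym. Of the 1575 symbols, 1003 were still listed under the same name, 191 under another one and 381 were not found. The word predicted therefore no longer holds for a part of them: Gm12942 is now Tmem35b, Gm7068 is Catspere1 and Gm14431 is Zfp967. Matched to protein-coding genes were 653 probes, to long non-coding RNAs 504, to pseudogenes 124 and to transcribed pseudogenes 135.

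Pseudogene probes were detected most often among these. Tested were 98 of 124 probes for pseudogenes (79.0%) and 94 of 135 for transcribed pseudogenes (69.6%). Protein-coding Gm-numbered genes reached 41.8%, where other protein-coding probes reached 75.9%. For long non-coding RNAs the shares were 42.1% for Gm-numbered and 44.1% for other probes. Probes of Gm-numbered genes not found in the table were tested in 46.8% of cases, beside 46.9% of the other probes not found. These shares are descriptions over probes and carry no test.

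For some probes the array's description names the tissue of the cDNA library behind the transcript. Where the cDNA came from brain or spinal cord, 64 of 106 Gm-numbered probes (60.4%) were tested. Where it came from testis, 24 of 65 (36.9%) were tested, and from other tissues 127 of 286 (44.4%). Probes outside the Gm-numbered ones had the same order, with 76.2% for brain or spinal cord, 64.6% for other tissues and 30.2% for testis.

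Gene families that were renamed since the array was designed differed in detection. The Pramel family, PRAME-like genes known from germ cells, had 25 probes, of which 2 were tested. Of 9 probes now named as Defa genes, the α-defensins of the gut, 1 was tested, and of 6 probes for Btbd35f genes none. Zinc finger genes (Zfp) had 22 such probes for 11 symbols, and 20 were tested. Their log2 fold changes (α-Gal A(-/0) over wildtype, as everywhere below) lay between -0.17 and 0.39, and none had an adjusted p under 0.05.

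Pseudogene probes often shared sequence with other probes. In all, 214 Gm-numbered probes had a stretch of at least 25 identical bases in common with a probe for another gene, and for 62 the stretch was 40 bases or longer. Of these 214, 139 (65.0%) were tested, against 45.7% of the 1640 probes without such a stretch. Among pseudogenes of both types, 62 of 67 probes with a shared stretch (92.5%) and 130 of 192 without (67.7%) were tested. A probe with a shared stretch can bind transcripts of both genes, so its signal cannot be ascribed to the Gm-numbered gene alone.

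Examples of shared stretches follow, shown because the partner is a well known gene. Whether the partner's transcript adds to the Gm-numbered signal was not tested. Letters are in capitals throughout, since every base printed is shared with the partner probe, and at most the first 30 bases of the stretch are given.
Gm12070, transcribed pseudogene, probe at chr11:26687772-26687831, plus strand, shared with Gapdh: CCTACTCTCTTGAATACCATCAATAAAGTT
Gm5093, pseudogene, probe at chr17:46576493-46576552, minus strand, shared with Rpl11: ACGATGGGATCATCCTTCCTGGAAAAT
Gm9706, pseudogene, probe at chr17:46543886-46543945, minus strand, shared with Isg15: CCATCCAGAGCCAGTGTTGGTTATAAAAGA
The whole stretches were 43 bases for Gm12070, 27 for Gm5093 and 35 for Gm9706. The mean log2 signal of the Gm5093 probe was 10.8, far below the 16.3 of the Rpl11 probe.

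Gm12070 and Gm5523, both transcribed pseudogenes that share sequence with Gapdh, the glycolytic enzyme glyceraldehyde-3-phosphate dehydrogenase, were among the 5 Gm-numbered genes with the highest signals. Gm5523 read 17.54, 17.54, 17.44 and 17.62 in the α-Gal A(-/0) mice and 17.60, 17.54, 17.55 and 17.48 in wildtype mice. Gm12070 read 17.29, 17.37, 17.29 and 17.29 against 17.31, 17.33, 17.33 and 17.23. The genotypes overlapped for both, with log2 fold changes of -0.01 (SE 0.059) and 0.01 (SE 0.0524). The other 3 were Gm10856, Gm11223 and Gm13826, now listed as Rpl37rt. Gm11223 shares 53 bases with a probe of Stmn1, and Gm10856 shares 27 bases with probes of Elk1, Glrx2 and Med16. The wildtype means of these 3 Gm-numbered genes lay between 16.90 and 17.02. Their log2 fold changes of 0.05, -0.11 and -0.04 did not pass the test (adjusted p from limma 0.62 to 0.84).

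For 36 tested Gm-numbered probes, the partner was a tested probe of a named protein-coding gene, in 10 cases a ribosomal protein gene. The longest shared stretch of each had 25 to 55 bases (median 31.5), and in 28 cases the 2 genes lay on different chromosomes. The genotype difference of a member and its partner differed by a median of 0.0289 on the log2 scale, while the standard error of a member's own log2 fold change had a median of 0.0642. The members' own log2 fold changes had a median absolute value of only 0.0718, so a small gap does not by itself show a shared signal. Pairs without a shared stretch were not compared. In 35 of 36 pairs the fold changes lay within 0.2 of each other. The exception was Gm14124, with a log2 fold change of -0.10 (adjusted p from limma 0.67), whose partner Zfp936 fell by 0.61 (SE 0.0503, adjusted p from limma 0.00082) with only 25 bases in common. One probe, Gm626, shared stretches with probes of 35 other genes.

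Gm9706 shows how closely such a pair can move. The α-Gal A(-/0) mice read 7.56, 7.43, 7.57 and 7.74 and wildtype mice 8.70, 7.90, 8.87 and 7.82. The probe of Isg15, a ubiquitin-like protein induced by interferon, read 9.62, 9.71, 9.69 and 9.73 against 10.90, 9.89, 11.05 and 9.95. In both, wildtype mice 1 and 3 stood above wildtype mice 2 and 4, and the genotypes did not overlap. The log2 fold changes were -0.75 (SE 0.242, adjusted p from limma 0.28) for Gm9706 and -0.76 (SE 0.266, adjusted p from limma 0.32) for Isg15, neither past the threshold. This pair was chosen after its values were seen.

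Probes were placed on chromosomes by the mm9 coordinates in the scanner files. All 19 autosomes and the X chromosome held Gm-numbered probes, 1686 in all on the autosomes. Chromosomes 4 (139), 2 (132), X (131), 11 (126) and 14 (124) held most, and chromosome 19 the fewest of the autosomes (39). As a share of each chromosome's probes they ranged from 2.21% on chromosome 6 to 5.39% on chromosome 14 and 5.87% on X. A further 28 lay on unplaced sequence, among them 19 on that of the Y chromosome, none of which was tested, 1 on the placed Y chromosome and 8 without a position.

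Detection varied by chromosome. On X, 41 of 131 Gm-numbered probes (31.3%) were tested, where all probes of X reached 58.3%. Over the autosomes the share ran from 37.7% on chromosome 6 to 60.5% on chromosome 18. On chromosomes 12, 13 and 18 the share of Gm-numbered probes came closest to that of all probes, with 59.1% against 59.7%, 57.0% against 58.4% and 60.5% against 62.4%. The median log2 fold change of the tested probes of an autosome lay between -0.08 and 0.02, and was -0.06 on X.

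Gm-numbered probes were gathered in places. Of 268 windows of 10 Mb that held any, the median held 6 and 6 windows held 20 or more. The fullest, chromosome 4 from 140 to 150 Mb, held 47 probes for 31 genes. Of the 47 probes, 21 are now named as Pramel and 10 as Zfp genes, and 19 were tested. Detection differed between such clusters. From 170 to 180 Mb on chromosome 2, 23 of 24 probes were tested, among them probes of zinc finger genes such as Gm14431, and their log2 fold changes lay between -0.24 and 0.20. On chromosome 14 from 0 to 10 Mb, where 31.6% of all probes were Gm-numbered, 25 of 25 were tested with fold changes between -0.81 and 0.59. On chromosome 11 from 90 to 100 Mb only 8 of 29 were tested.

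Genotype differences were tested with limma over all 34339 tested probes. Of the 888 Gm-numbered probes, 8 had an adjusted p under 0.05 (0.901%), 3 higher and 5 lower in the α-Gal A(-/0) mice (5 higher and 4 lower with a 75th percentile shift in place of quantile normalization). Over all tested probes the share was 0.885%, with 0.306% higher and 0.58% lower. An unadjusted p of at most 0.01 from limma together with a fold change of at least 1.2 was met by 37 Gm-numbered probes (4.17%), 10 higher and 27 lower, beside 3.46% of all probes (1.14% higher and 2.32% lower). The study set the same cut-offs on its own unequal-variance test, and with that test 18 Gm-numbered probes met them, 7 higher and 11 lower. The split between directions depended on the scaling and on the filter. It was 15 higher and 20 lower with the 75th percentile shift, and 9 and 16 among probes detected on all 8 arrays, where 3 and 3 had an adjusted p under 0.05. The filter let in 193 probes through the wildtype arrays alone and 2 through the α-Gal A(-/0) arrays alone. Of the 8, Gm3219, Gm14762 and Gm3161 passed it through the wildtype arrays alone and Gm4876 through the α-Gal A(-/0) arrays alone. In each case this was the genotype with the higher signal, so these tests are not independent of the filter. The genotypes did not overlap in 81 Gm-numbered probes (9.12%), beside 7.95% of all probes. The median log2 fold change was -0.02 over Gm-numbered probes and -0.02 over all probes, and the middle 90% lay between -0.42 and 0.30. These shares were near those of the array as a whole. With bulk tissue, fewer cells of a type and less RNA per cell cannot be told apart in any of these values.

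Facts of the whole series bear on these values. Between 29943 and 38240 probes were detected per array, fewest in α-Gal A(-/0) mouse 2. The Gla probe did not differ, with a mean of 17.15 in the α-Gal A(-/0) and 17.09 in wildtype mice (log2 fold change 0.06, SE 0.0558, adjusted p from limma 0.71). Whether that probe lies in the altered stretch of Gla is not given in the sources used here, so it checks no label. Each array was given the genotype of its scanner file. In the deposited table of normalized values most columns match the scanner file of another sample, some of them of the other genotype, so the direction of every difference rests on the scanner files being assigned to the right mice. The listed markers of excitatory and inhibitory neurons, astrocytes, oligodendrocytes, microglia and endothelium all passed the detection rule. Mean signals of 5 striatal markers ranged from 10.24 to 12.02 in the α-Gal A(-/0) and from 9.88 to 11.36 in wildtype mice with none of 5 called. Their median log2 fold change was 0.69, the largest in size of the listed marker sets. For the microglia markers it was -0.26 and for the olfactory bulb markers 0.12. Of other markers, Csf1r of microglia and Cdhr1 of the olfactory bulb were called, and the part of such tissue differences in the Gm-numbered results was not tested.

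Gm4924 was the brightest of the 8 and had the lowest adjusted p. It is listed as protein-coding, and the array describes its transcript as Mif1. The probe lies at chr10:81863532-81863591. The α-Gal A(-/0) mice read 11.44, 11.36, 11.38 and 11.29 and wildtype mice 10.05, 10.08, 9.97 and 9.82. All 4 α-Gal A(-/0) values lay above all wildtype values. The means were 11.37 ± 0.06 and 9.98 ± 0.12 (SD, n = 4 each), a 2.62-fold higher signal (log2 fold change 1.39, SE 0.0728, adjusted p from limma 7.2e-05).

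The same stretch of chromosome 10 was read by lincRNA interval probes. Gm4924 shares the following 30 bases, in capitals, with probes of both intervals that end there.
Gm4924, chr10, plus strand: ACATATGAGGATGCTGATGCTACATGCCAG
Of these, the probe of the shorter interval, 10 bases away, read 11.42, 11.41, 11.38 and 11.26 against 10.08, 10.17, 9.96 and 9.84. It was again higher in every α-Gal A(-/0) mouse, with a log2 fold change of 1.36 (SE 0.0832, adjusted p from limma 0.00017). For the longer interval, 3 probes rose by 1.36, 1.34 and 1.54, and the last lies 46509 bases from the Gm4924 probe. The latter 2 share no 25-base stretch with it. A transcript that lies between those 2 probes, ENSMUST00000165906, read 12.87 and 12.74 on average and differed by 0.13 (SE 0.0751, adjusted p from limma 0.54).

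Gm4876, a long non-coding RNA on chromosome 6, was higher in the α-Gal A(-/0) mice. The α-Gal A(-/0) mice read 5.78, 5.71, 5.49 and 6.32 and wildtype mice 3.82, 3.83, 4.74 and 3.86. The genotypes did not overlap, but the probe was well above background on only 2 of 4 wildtype arrays. Its log2 fold change was 1.77 (SE 0.249, adjusted p from limma 0.017), or 0.56 (adjusted p 0.008) with normexp background correction. Here and below, that correction includes an offset of 50 added to every intensity, which in itself makes log2 fold changes of dim probes smaller. The nearest tested probe of another gene, Tes at 29373 bases, differed by -0.01 (adjusted p from limma 0.98).

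Gm5593, known only from a predicted mRNA model and not found in the RefSeq table, lies at chr7:49361150-49361209. Its signals were 5.69, 5.58, 6.07 and 5.99 in the α-Gal A(-/0) mice and 4.84, 4.32, 4.94 and 4.83 in wildtype mice. It was detected on all 8 arrays, and the genotypes did not overlap. The log2 fold change was 1.10 (SE 0.162, adjusted p from limma 0.022), or 0.42 (adjusted p 0.031) with normexp background correction.

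Gm3219 was lower in the α-Gal A(-/0) mice. It is a transcribed pseudogene whose probe lies 485 bases from a probe of Glud1, the mitochondrial glutamate dehydrogenase. Wildtype mice read 7.22, 6.99, 6.80 and 6.75 and α-Gal A(-/0) mice 3.86, 2.55, 4.57 and 3.65. All wildtype arrays detected it and 1 of 4 α-Gal A(-/0) arrays did. The log2 fold change was -3.28 (SE 0.371, adjusted p from limma 0.0054), or -1.18 (adjusted p 3.7e-05) with normexp background correction. Since 3 of the 4 α-Gal A(-/0) values were not well above background, the size of the difference is not well measured.

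Neighbours of Gm3219 had smaller log2 fold changes. The Glud1 probes differed by 0.09 (SE 0.0573) and 0.13 (SE 0.0554) with adjusted p from limma of 0.59 and 0.42. Sncg, the gene of γ-synuclein at 25072 bases, read 7.44, 7.43, 7.39 and 7.67 against 8.00, 8.03, 8.00 and 7.98, and fell by 0.52 (SE 0.0705, adjusted p from limma 0.014). Mmrn2, Bmpr1a and Fam35a within 100 kb had log2 fold changes of -0.29, -0.14 and -0.24, none past the threshold.

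Gm14762, a long non-coding RNA on X, was lower in the α-Gal A(-/0) mice. They read 4.57, 4.48, 4.90 and 4.69, and wildtype mice read 5.89, 5.83, 5.67 and 5.98. No values overlapped, and the probe was missed on 1 α-Gal A(-/0) array. The log2 fold change was -1.18 (SE 0.105, adjusted p from limma 0.0012). With normexp background correction it was -0.46 (adjusted p from limma 0.0013). Another probe of the gene averaged 6.96 and 7.14 and differed by -0.18 (SE 0.0619, adjusted p from limma 0.32).

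Gm3161, now listed as the long non-coding RNA Gm9732, was not well above background on any α-Gal A(-/0) array and was tested only through the wildtype arrays. Wildtype mice read 4.98, 4.63, 4.63 and 5.39, and the α-Gal A(-/0) mice 3.99, 2.88, 3.04 and 3.19. In these quantile-normalized signals the mean was at least 1.33-fold lower in the α-Gal A(-/0) mice, a bound that carries no error. The fitted log2 fold change was -1.63 (SE 0.267, adjusted p from limma 0.035). After normexp background correction, to which the bound does not apply, it was -0.38 (adjusted p from limma 0.02). Such a bound sets the wildtype mean against, per array, the higher of the probe's own signal and the lowest signal that counted as well above background. A probe of the same gene that overlaps it by all but 5 bases read 7.58 to 7.85 in the α-Gal A(-/0) and 7.67 to 7.99 in wildtype mice and differed by -0.12 (SE 0.0936, adjusted p from limma 0.66). The remaining probe of the gene was detected on no array.

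Gm10790 and Gm5086, long non-coding RNAs on chromosome 13, were detected on all 8 arrays. Gm10790 read 6.95, 6.84, 6.72 and 7.09 in the α-Gal A(-/0) mice and 7.64, 7.58, 7.66 and 7.33 in wildtype mice. Gm5086 read 6.71, 6.48, 6.69 and 6.87 against 7.41, 7.37, 7.47 and 7.08. In both the lowest wildtype value came from mouse 4 and the highest α-Gal A(-/0) value from mouse 4, and the genotypes did not overlap. Each had a log2 fold change of -0.65, with SE 0.105 and adjusted p from limma 0.033 for Gm10790, and SE 0.111 and 0.043 for Gm5086. With normexp background correction Gm5086 differed by -0.40 (adjusted p from limma 0.041).

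Not all 8 calls stood when an array was left out. Gm4924, Gm14762 and Gm3219 had an adjusted p under 0.05 from limma without any single array, at most 0.0008, 0.0087 and 0.027. Gm4876 passed in 4 of 8 such fits and lost its call without α-Gal A(-/0) mouse 1 or wildtype mouse 1, 2 or 4 (at most 0.069). Gm5593 passed in 3 and lost it without α-Gal A(-/0) mouse 1, 3 or 4 or wildtype mouse 1 or 4 (at most 0.068). Gm10790 and Gm5086 passed only without α-Gal A(-/0) mouse 4 or wildtype mouse 4, and otherwise reached 0.12 and 0.15. Gm3161 passed only without α-Gal A(-/0) mouse 1, and otherwise reached 0.12.

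The arrays stood in 2 rows of the slide, with α-Gal A(-/0) mouse 1 and wildtype mice 1 to 3 in row 1 and the others in row 2. The 8 differences had the same sign in both rows, which was bound to be so because the genotypes did not overlap in any of them. Gm4924 differed by 1.41 in row 1 and 1.53 in row 2, Gm3219 by -3.15 and -3.16, and Gm14762 by -1.23 and -1.29. Gm3161 differed by -0.75 and -2.36. With slide row as a block these first 3 kept an adjusted p under 0.05 and the other 5 did not.

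Beyond the threshold, 4 probes had an adjusted p between 0.05 and 0.1. Gm12942 (Tmem35b) read 9.49 to 9.59 in the α-Gal A(-/0) and 9.14 to 9.32 in wildtype mice and differed by 0.33 on the log2 scale (adjusted p from limma 0.063). Gm4736 (0.39, adjusted p 0.066) and Gm7068 (0.46, adjusted p 0.076) were also higher, and Gm4657 (-0.48, adjusted p 0.059) was lower. In none of these 4 did the genotypes overlap.

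The 37 probes past these cut-offs with limma's p, where placed on a chromosome, were spread over 16 of the 19 autosomes and X. Their absolute log2 fold change had a median of 0.48, and 8 of them differed by 2-fold or more, 3 higher and 5 lower. A mean log2 signal under 7 was seen in 19 of the 37 and in 347 of all 888 tested. In all, 8 chromosome regions in which changed probes of any kind gather on these same arrays together held 51 tested Gm-numbered probes. Of these, 7 (13.7%) passed those cut-offs, beside 10.9% of all tested probes there, and outside the regions the shares were 3.58% and 2.79%. Since the regions were picked on these data, this is a description. Within 100 kb, 2 of the 8 called Gm-numbered probes (Gm4924 and Gm3219) had a called probe of another gene, beside 33 of the 888 tested (3.72%). For Gm4924 these were the lincRNA interval probes described above, some of which share sequence with its probe.

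Gm-numbered probes seen in only 1 genotype were few. Detected on all 4 wildtype and on no α-Gal A(-/0) array were 4, and none the other way, beside 64 and 2 of all 55681 probes. Apart from Gm3161 these were Gm8232, Gm5129 and Gm8995. Gm8232 read 3.53, 2.54, 4.06 and 4.18 in the α-Gal A(-/0) mice against 5.14, 4.62, 4.50 and 4.89. By the bound described for Gm3161, its mean was at least 1.2-fold lower on these arrays, a value that carries no error. Gm8232 was tested only through the wildtype arrays and did not pass the threshold (adjusted p from limma 0.23). For Gm5129 and Gm8995 the genotypes overlapped and no fold is given. The 2 Gm-numbered probes within 1 Mb of Gla, Gm15023 and Gm7903, were detected on no array.

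Different probes of one gene often read differently. Of 229 Gm-numbered genes with 2 or more probes, 95 had 2 or more tested and 16 had 3 or more. The log2 fold changes of such probes differed by a median of 0.0783 and by over 0.5 in 7 genes, and in 33 genes they had opposite signs. Among the 16, Gm5458, Gm14431 and Gm7827 had the widest differences. Gm5458 gave -0.07, 0.01 and -0.37, Gm14431 gave 0.20, -0.05 and -0.12, and Gm7827 gave -0.02, 0.28 and -0.07, none of them called. In both called genes with another tested probe, Gm14762 and Gm3161, the other was not called.

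Some probes varied between mice of one genotype more than between genotypes. The widest wildtype range was that of Gm5868 (now Slc10a4l), which read 6.77, 9.03, 8.26 and 8.25 in wildtype and 9.40, 9.34, 9.12 and 7.13 in α-Gal A(-/0) mice. Gm4951 read 7.91, 6.43, 8.39 and 6.82 against 5.73, 9.67, 6.25 and 6.07. Gm4890 read 4.57, 3.66, 4.07 and 5.48 against 4.66, 6.23, 4.72 and 4.56. The genotypes overlapped in all 3, and the adjusted p from limma lay between 0.66 and 0.88.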

How the data were processed

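Per the labels and file headers, the authors hybridized Cyanine-3 labeled RNA of 8 mice to 1 one-color Agilent 8x60K slide and made the deposited intensity values with Feature Extraction 10.7.3.1, without subtraction of local background and without normalization between arrays. The deposited table of normalized values was not used, since most of its columns hold the values of another sample's scanner file. Some of these cross genotypes. The genotype of each array is that of its scanner file, and no probe checked it independently. Spots of a probe were averaged, log2 intensities were quantile normalized, and each probe's genotype difference was fitted by limma 3.58.1 (lmFit, then eBayes; R 4.3.3, statmod 1.5.0). Two-sided p-values were adjusted by Benjamini-Hochberg for the 34339 probes tested. No spot was flagged as saturated. The steps were tested on simulated data. The number of arrays limits the precision. Other steps used Python 3.11.15, pandas 2.3.3, numpy 2.4.6, scipy 1.17.1 and matplotlib 3.10.9.

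The 5 symbols left out follow the rule that defines the probes. Members, lists and regions were chosen with earlier results of these data known. Named are probes with an adjusted p under 0.05 and the other probes of their genes, Gm4924, the 5 brightest genes, probes detected in 1 genotype only, those within 1 Mb of Gla, genes whose probes differ most and the 3 widest wildtype ranges. Nearest probes within 100 kb, the 4 with an adjusted p of 0.05 to 0.1, and probes sharing 25 bases were named in addition. Alternatives were another scaling, background correction, filters, tests, blocks, array weights, gene averages and each array left out.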

Additional observations from a re-analysis of the deposited data

Results flagged for a closer look

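The 4 values of a genotype were screened for 1 mouse far from the other 3, in 72 groups of 4. These were the values of the tested named probes and the number of Gm-numbered probes detected per array. Chance would flag about 1 in 20 groups. In 6 groups 1 mouse stood apart. Wildtype mouse 3 read 4.74 for Gm4876 where the other 3 wildtype mice lay between 3.82 and 3.86. α-Gal A(-/0) mouse 2 read 6.23 for Gm4890 (others 4.56 to 4.72), 9.67 for Gm4951 (others 5.73 to 6.25) and 17.37 for Gm12070 (others 17.29). α-Gal A(-/0) mouse 3 read 4.91 for 1 of the Gm5458 probes (others 5.42 to 5.50). α-Gal A(-/0) mouse 4 read 7.13 for Gm5868 (others 9.12 to 9.40). The array of α-Gal A(-/0) mouse 2, named in 3 of the 6, also had the fewest probes above background, and the part of this in those values was not tested.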

How the results depend on the processing

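The 8 Gm-numbered probes with an adjusted p under 0.05 became 4 without a filter on detection, 2 with the methods' own unequal-variance test, 5 with the replicate number as a block and 3 with slide row as a block, and 4 to 7 when 1 array was left out. A 75th percentile shift gave 9 (5 higher, 4 lower, where quantile normalization gave 3 and 5). The 37 probes past both cut-offs (unadjusted p 0.01, 1.2-fold) became 22 with normexp background correction, 18 with the methods' own test and 26 to 44 when 1 array was left out. Counts under the other alternatives, the number detected (693 to 1160) and the number of genes called (8) stayed within 1.5 times. The median log2 fold change ranged from -0.034 to 0.009, including -0.034 to 0.007 when 1 array was left out. The replicate numbers do not pair the mice (residual correlations from -0.0894 to 0.148), and 4 of the 5 probes called with the replicate block were among the 8. Gm4924 and Gm14762 were called under every alternative run for them and Gm3219 under all but the methods' own test (adjusted p 0.26). The filter for detection on all 8 arrays removed Gm14762 and Gm3219, along with Gm3161 and Gm4876, so these had no result there. Gm14762 and Gm3219 had entered the main test through the wildtype arrays alone, where they were higher. All 156 values of the 8 probes kept their direction. With an array left out or within a slide row this was bound to be so, since their genotypes did not overlap. The normexp setting adds an offset of 50 to every intensity, which in itself brings log2 fold changes of dim probes closer to 0. With it, Gm4924 (1.32) differed more than Gm3219 (-1.18) and Gm4876 (0.56). Within slide row 2, chosen after seeing the data, the second tested probe of Gm3161 turned to 0.13 from -0.12. The cause of the other shifts was not tested. Of the 1854 probes, 710 were well above background on no array, and nothing is said of their genes.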
